A study of Mus musculus with 89 samples.

Results

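Enteroendocrine containing clumps were taken here as wells of sorted jejunal cell clumps that held at least 5 unique molecular identifiers (UMIs, each standing for 1 captured mRNA) summed over 12 enteroendocrine genes: Chga, Chgb, Sct, Cck, Gip, Ghrl, Gcg, Nts, Sst, Pyy, Tac1 and Tph1. Of 6004 clump wells from 5 mice that passed the filters (over 500 UMIs, at least 200 genes, at most 30% mitochondrial UMIs), 74 were members. They numbered 10, 3, 7, 50 and 4 in mice 1 to 5, so mouse 4 contributed most of them. The rule used the UMIs of the 12 genes themselves, so their levels are given as a description, and tests of gene levels were run only on other genes. The share of wells that meet the rule was compared between gates and zones, which the rule did not use.

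All clumps came from C57BL/6 males labelled as 3 months old, kept on regular chow and carrying no genetic change. The jejunum was opened with EDTA to leave small groups of neighboring cells attached, and live clumps were sorted by DNA content into 384-well plates for MARS-seq, a method that reads the 3′ ends of mRNA with a barcode per well. All 5 mice gave pairs, sorted at a 4n DNA content, whereas only mice 1, 4 and 5 gave clumps of more cells, sorted above it and called larger clumps. Every mouse was 1 animal and the unit of replication, and a well is a pool of at least a pair of cells, so RNA of the partner cells is part of each value. The comparison group was the wells of the same mice with 0 UMIs of the 12 genes.

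Enteroendocrine cells are rare hormone-secreting cells of the gut epithelium that sense luminal nutrients and release peptides or serotonin into the blood. They arise in the crypt from progenitors that transiently express the transcription factor Neurog3, and a cascade of further factors, among them Neurod1, Pax4, Pax6, Isl1 and Nkx2-2, sets which hormone a cell makes. Classical names follow the hormone: I cells make cholecystokinin (Cck), K cells Gip, L cells the proglucagon peptides (Gcg) and peptide YY (Pyy), X cells ghrelin (Ghrl), D cells somatostatin (Sst), N cells neurotensin (Nts), S cells secretin (Sct) and enterochromaffin cells serotonin, with Tph1 as its rate-limiting enzyme and Tac1 encoding substance P. Chromogranins A and B (Chga, Chgb) are packaging proteins of the dense-core granules in which these products are stored.

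The promoters of several of these genes carry short motifs of factors known from endocrine tissue, and they are printed to show the sequence behind the genes that the results turn on. The cyclic AMP response element (TGACGTCA, the same on both strands) is bound by CREB family factors. The E-box CAGATG, which was searched on both strands, is a form bound by bHLH dimers such as those of Neurod1. In 32851 RefSeq promoters (GRCm38.p6), the 150 bases before the start held the former in 1.36% and the latter in 8.81%. Of the 12 rule genes and the 42 genes that rose in members (see the tests that follow), 54 in all, 43 had a promoter in that table. The cyclic AMP element was found in 4 of them (Chgb, Pax6, Scg2 and Sst) and the E-box in 4 others (Cck, Cyp4b1, Gcg and Rimbp2). A match is a description of these letters, and no occupancy was measured. The windows are chr2:132781492-132781641 on the plus strand for Chgb and, on the minus strand, chr1:79440027-79440176 for Scg2, chr16:23890845-23890994 for Sst, chr2:62483654-62483803 for Gcg and chr9:121495695-121495844 for Cck. The next 5 sequences are 150 bases long, 5′ to 3′ on the strand of the gene, with the motif in capitals.
Chgb: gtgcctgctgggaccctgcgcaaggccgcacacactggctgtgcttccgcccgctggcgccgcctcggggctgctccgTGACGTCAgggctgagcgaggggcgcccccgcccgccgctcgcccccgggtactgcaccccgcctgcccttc
Scg2: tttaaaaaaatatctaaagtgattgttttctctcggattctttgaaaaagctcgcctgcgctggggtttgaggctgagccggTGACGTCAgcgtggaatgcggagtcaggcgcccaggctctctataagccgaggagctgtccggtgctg
Sst: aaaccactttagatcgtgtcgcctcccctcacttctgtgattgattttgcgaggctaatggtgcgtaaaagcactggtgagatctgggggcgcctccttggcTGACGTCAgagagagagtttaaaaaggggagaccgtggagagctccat
Gcg: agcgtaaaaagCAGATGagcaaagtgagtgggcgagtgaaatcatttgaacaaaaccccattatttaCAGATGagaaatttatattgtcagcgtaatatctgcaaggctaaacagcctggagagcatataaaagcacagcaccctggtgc
Cck: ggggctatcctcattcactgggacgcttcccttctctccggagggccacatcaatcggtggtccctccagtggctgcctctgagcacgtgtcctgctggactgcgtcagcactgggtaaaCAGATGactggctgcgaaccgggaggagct
Start sites are those of RefSeq, and for Chgb, Scg2 and Sst they lie inside the gene as the GRCm38 annotation draws it. The element starts 72 bases before the start site in Chgb, 68 in Scg2 and 48 in Sst. Gcg held 2 copies of the E-box, the nearer one 83 bases before the start, and Cck held 1 at 30 bases.

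The members varied widely in how much hormone RNA they held. The summed UMIs of the 12 genes ranged from 5 to 439 with a median of 34.5, and their share of all UMIs in the well from 0.0157% to 17.6% with a median of 0.42%. Total depth ranged from 503 to 58990 UMIs (median 8043). At the edge of the rule, 6 wells held exactly 5 such UMIs and 25 held 4. The 6 wells just inside had a median depth of 8768 UMIs and mostly Chgb (11 UMIs) and Cck (8), whereas the 25 wells just outside were deeper (median 20317 UMIs) and held mostly Sct (48 UMIs) and Chga (26).

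A low level of the 12 genes was spread over many wells. Between 1 and 4 UMIs were found in 998 wells, which made up 18.9% of wells on the 23 plates with a member and 10.9% on the 18 plates without one. Plate 1 of the larger clumps of mouse 4 stood apart, with 18 members and 1 to 4 UMIs in 150 of its 328 wells (45.7%). In those 150 wells Cck and Gcg gave 33.9% and 21.6% of the 12 genes' UMIs, against 2.16% and 1.21% in the 848 such wells of other plates, where Sct (46.4%) and Chga (29.1%) dominated. The source of these low counts was not tested. All plates use the same 384 well barcodes, and the members used 73 of them, with 1 barcode used by a pair of members on different plates. Members held between 83.8% and 95.8% of all UMIs of Chgb, Cck, Gip, Ghrl, Gcg, Nts, Sst and Pyy in the kept wells, 69.8% of Tac1 and 78.9% of Tph1, but 28.6% of Chga and 34.7% of Sct. Fewer enteroendocrine cells in a well and less hormone RNA per cell cannot be told apart in these pooled wells.

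Among the hormone genes, 3 gave most of the signal. Cck had 791 UMIs in 36 of the 74 members, Gcg 760 in 21 and Gip 755 in 19, each near 18% of the 12 genes' UMIs (18.4%, 17.6% and 17.5%). Without mouse 4 the shares were 7.96%, 9.69% and 36.2%. For Gip, however, 432 of the UMIs (57.2%) came from 1 pair of mouse 2, the member with the most hormone RNA. Ghrl had 320 UMIs in 17 wells, Sct 307 in 42 and Pyy 209 in 9. The remaining hormones were rarer, with Tac1 at 90 UMIs in 18 wells, Nts at 68 in 5, Sst at 67 in 4 and Tph1 at 30 in 13. Of the granule proteins, Chgb was the most widespread rule gene, with 772 UMIs in 59 members, whereas Chga had 140 UMIs in 36. The markers of the label, Chga, Chgb, Cck, Gip and Ghrl, were thus all seen in members, but they belong to the rule and are no independent check of it.

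The hormone mix differed between mice. Mouse 2, with 3 members, had 452 Gip UMIs, of which 432 lay in 1 pair. In mouse 3 Gip (118 UMIs) and Ghrl (68) led and Gcg was not seen in its 7 members. In mouse 4 Cck (662), Chgb (634) and Gcg (603) were the most abundant, whereas in mouse 1 Pyy (141) and Sct (139) were. Of these mouse 1 UMIs, 124 of Pyy and 138 of Sct lay in its 5 villus-like members (Apoa1, Apoa4 and Apob at 0.5% of UMIs or more). Its other members were led by Gcg (81), with Sct at 1. Mouse 4 had no villus-like member, so mouse and zone cannot be told apart in this contrast. With 3 to 10 members in the other mice, 1 well can set such an order.

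**Figure D1:**
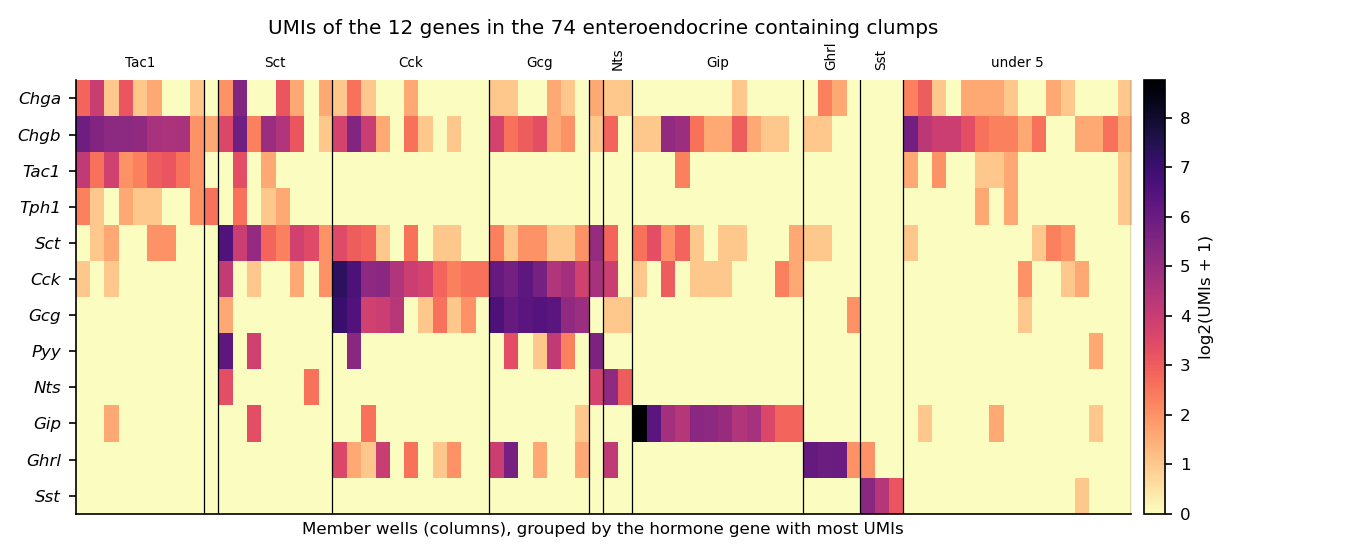
UMIs of the 12 rule genes (rows) in each of the 74 members (columns), on a log2(UMIs + 1) color scale, with columns grouped by the hormone gene with the most UMIs or, for 16 wells, by having under 5 hormone UMIs. Cck and Gcg are dark in 14 of the same columns at 3 or more UMIs each, and all 12 columns with 3 or more Tac1 UMIs are also dark for Chgb.

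Hormone genes were seen together in recurrent pairs. At a minimum of 3 UMIs per gene, Cck and Gcg shared 14 wells, which were 56.0% of the 25 Cck wells and 93.3% of the 15 Gcg wells. These 14 wells came from 4 mice and 5 plates, 7 of them from plate 1 of the larger clumps of mouse 4, and their ratio of Cck to Gcg UMIs ran from 0.259 to 2.77 (0.448 to 2.77 on that plate). All 12 Tac1 wells (100%) also held Chgb, and no well held Tac1 and Cck together at that level. Cck was found in 6 of 7 Pyy wells (85.7%) and 7 of 12 Ghrl wells (58.3%), and Sct in 4 of 5 Nts wells. None of the 3 Sst wells had 3 or more UMIs of Chgb or Cck. A well holds several cells, so a shared well does not show that 1 cell expressed both genes.

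Of the 74 members, 58 held at least 5 UMIs of the 10 hormone genes (all but Chga and Chgb), and 3 held none. In these 58 wells the leading hormone gene had a median of 66.7% of hormone UMIs, and it reached 80% in 21 wells and stayed under it in 37. The leading gene was Gip in 12 wells, Cck in 11, Tac1 in 9, Sct in 8, Gcg in 7, Ghrl in 4, Sst in 3, Nts in 2, and Pyy and Tph1 in 1 each. Altogether, 34 members had at least 2 hormone genes at 3 or more UMIs.

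Other endocrine genes, which the rule did not use, fell unevenly over these groups of wells. For comparison, the wells led by Cck or Gcg held 28.1% of all UMIs in members, those led by Tac1 or Tph1 9.47%, by Sct 13.6% and by Ghrl 5.38%, and wells with under 5 hormone UMIs 29.0%. The genes are given as counts without a test, since a group may rest on few plates (8 of the 18 wells led by Cck or Gcg lay on plate 1 of the larger clumps of mouse 4). Etv1, a factor of the ETS family, had all of its 13 UMIs in the 18 wells led by Cck or Gcg, in 6 wells. The fatty acid receptor Ffar1 had 13 of 15 UMIs there, in 9 wells. The granule protein Scg2 had 21 of 28 UMIs in this group, the peptide-processing carboxypeptidase Cpe 38 of 63 and the calcium sensor Scgn 28 of 53. Mboat4, the enzyme that acylates ghrelin, had 7 of its 9 UMIs in wells led by Cck or Gcg and 1 in the wells led by Ghrl.

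The wells led by Tac1 or Tph1 had another set. These 10 wells held Chgb in 10 of 10 (287 of its 772 UMIs), 6 of 10 UMIs of Lmx1a, a factor known for enterochromaffin cells, and 6 of 10 of the vesicle GTPase Rab3c, whereas Isl1, Etv1 and Scgn were not seen there. The other 4 Lmx1a UMIs lay in wells led by Sct. The secreted lectin Reg4 had 39 of 71 UMIs in Sct wells and 24 in Tac1 or Tph1 wells, but came from 5 wells in all. In the wells led by Ghrl, which were only 4, Nkx2-2 had 7 UMIs, Gfra3 7 and Scgn 12.

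**Figure D2:**
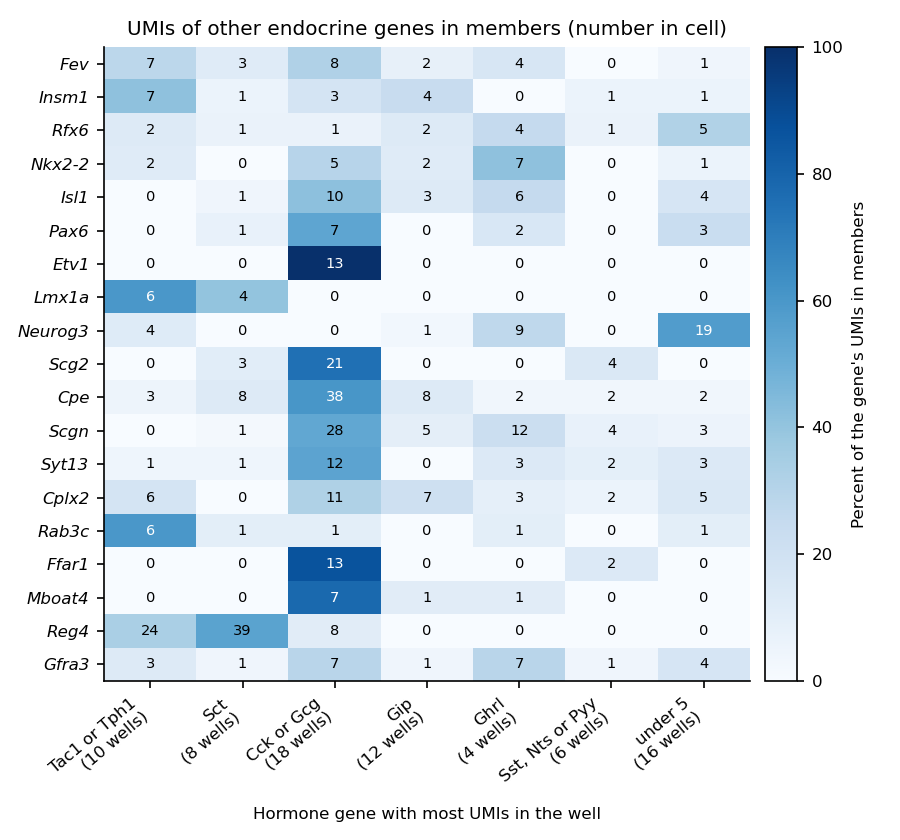
UMIs of 19 endocrine genes outside the rule (rows) in members grouped by their leading hormone gene (columns, with the number of wells), where the number in a cell is the UMI count and the color its percent of all UMIs of the gene in members. Etv1, Ffar1, Mboat4 and Scg2 are concentrated in the wells led by Cck or Gcg, Lmx1a and Rab3c in those led by Tac1 or Tph1, and Neurog3 in wells under 5 hormone UMIs and wells led by Ghrl.

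Neurog3, which marks the progenitor stage, was found in 8 members. The counts were 10 UMIs in 1 well of mouse 1, 2 in 1 well of mouse 3 and 7, 5, 4, 2, 2 and 1 in 6 wells of mouse 4. Of these 33 UMIs, 19 lay in wells with under 5 hormone UMIs, 9 in wells led by Ghrl, 4 in a Tac1 well and 1 in a Gip well, and none in wells led by Cck or Gcg. The well with the most Neurog3 held 18 Chgb and 7 Chga UMIs with 1 hormone UMI. In the 8 Neurog3 wells the 12 genes summed to a median of 64.5 UMIs (11 to 87), against 30.5 (5 to 439) in the 66 others.

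Members were next compared with the wells of 0 UMIs in the same mice, so as to ask which further genes distinguish them. To keep the enterocytes of the villus out, only crypt-like wells were used, in which the apolipoproteins Apoa1, Apoa4 and Apob, which mark villus enterocytes, made up under 0.5% of UMIs. In this way 65 members (5, 3, 5, 50 and 2 in mice 1 to 5) faced 2675 wells. UMIs were summed per mouse and class, and the test used mice 1, 3 and 4, which had at least 5 member wells. Their 60 members summed to 29183, 46718 and 799152 UMIs, so the precision in mice 1 and 3 was low. Of 9731 genes tested (edgeR quasi-likelihood test with the mouse as block, Benjamini-Hochberg adjusted p under 0.05), 42 rose and 125 fell in members, 1.72% of the genes tested (0.432% higher, 1.28% lower). The median log2 fold change of all tested genes was −0.15, and it was 0.02 when scaling factors came only from the 821 genes with at least 5 UMIs in every sum (47 rose and 117 fell, 1.69% of genes, 0.483% higher and 1.2% lower). With at least 2 wells per sum, an alternative chosen after seeing the data that brought in all 5 mice, 48 rose and 117 fell of 6666 genes (2.48%, 0.72% higher and 1.76% lower). Every gene received the shared spread in this fit, which had 2 residual degrees of freedom, so p-values are too small for genes whose RNA sits in few wells.

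Transcription factors of endocrine differentiation were among the rises. Fev (GRCm38 chr1:74881509-74885419, minus strand), an ETS factor of the endocrine lineage, was present at 34.3, 203, 85.6, 22.5 and 0 CPM (UMIs of the gene scaled to a common library total, rule genes left out) in the members of mice 1 to 5, and at 0 in the 0-UMI wells of every mouse. The 25 UMIs against none in the pooled wells correspond to an at least 158-fold higher level, with the floor of 3 UMIs over the group (fitted log2 difference 9.13, SE 1.12, adjusted p = 9.1e-14 by edgeR). Neurog3 itself, located at chr10:62133090-62134763, was present at 343, 0, 42.8, 26.3 and 0 CPM in members and at no more than 2.59 CPM in 0-UMI wells (log2 4.52, SE 0.58, adjusted p = 1.1e-12). Neurog3 was not seen in the 3 members of mouse 2, and the 2 members of mouse 5, with the lowest depth, held neither gene.

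Insm1, a zinc finger factor needed for endocrine differentiation, was measured at 68.5, 507, 107, 5.01 and 0 CPM in members of mice 1 to 5 and at 0.42 CPM or less in the 0-UMI wells (log2 5.37). Isl1, a LIM homeobox factor, was at 0, 101, 85.6, 21.3 and 662 CPM in members (log2 6.20), where the value of mouse 5 stems from 1 UMI. The homeobox gene Nkx2-2 (log2 5.46) and the paired box gene Pax6 (log2 4.63) rose as well. Counting intervals (95%) and floors cover counting error only.

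Of 22 endocrine transcription factors in the list, 21 were in the table, 11 passed the filter on low counts, and 7 of these rose and none fell (median log2 4.63). Of all genes tested, 0.432% rose. The filter keeps a low gene mainly where members hold it, so these medians are no independent support. Pooled CPM, given next for genes below the filter, rests mostly on mouse 4, and no share over all such genes was computed. The 10 that did not pass were all seen in members and all had a higher pooled CPM there than in the 0-UMI wells, among them Rfx6 with 14 UMIs against 0 (at least 88.5-fold), Lmx1a with 10 against 0 (at least 63.2-fold) and Etv1 with 13 against 2. Sox4, at 66 UMIs in members, differed by 1.41 (adjusted p = 0.091, or 0.0081 with the scaling from genes present in every sum), and Hes6 (0.22), Foxa1 (0.94) and Foxa3 (0.25) did not pass the test either.

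**Figure D3:**
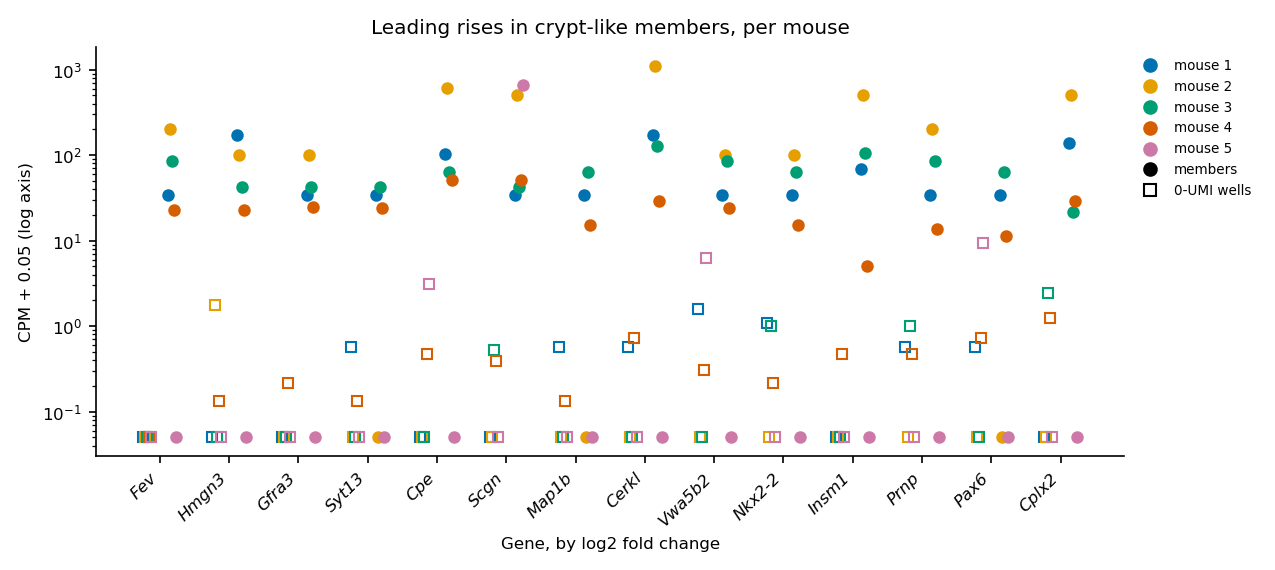
Level of 14 of the 15 genes with the largest rise in crypt-like members (filled circles) and in 0-UMI wells (open squares) of mice 1 to 5, as CPM + 0.05 on a log axis, so that points at 0.05 are zero counts. In mouse 4, which has 50 of the 65 members, every gene lies above its 0-UMI wells. The choice of these genes required this of mice 1, 3 and 4, so it is no separate result. Mouse 5, with 2 members, has a count only for Scgn.

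Genes of the secretory granule and of regulated exocytosis made up the other large group. Cpe was at 103, 609, 64.2, 51.3 and 0 CPM in members of mice 1 to 5 and at 0, 0, 0, 0.42 and 3.08 in 0-UMI wells (log2 7.03, SE 0.66, adjusted p = 4.9e-24). Scgn was at 34.3, 507, 42.8, 51.3 and 662 CPM in members, with 50 UMIs against 5 in 0-UMI wells (log2 6.83, SE 0.68, adjusted p = 3.2e-21). Scg2, which had the cyclic AMP element shown earlier in its promoter, had 22 UMIs in crypt-like members and none in the 0-UMI wells, at least 139-fold higher. The summed level of Scgn was higher in members in 5 of 5 mice, where the values of mice 1 and 5 rest on 1 UMI each, and Cpe was absent from the 2 members of mouse 5.

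Syt13, a synaptotagmin, had 22 UMIs in members against 2 (ratio 208, 95% counting interval 51.3 to 1829). Cplx2, which clamps SNARE complexes, rose by 4.57, the secretogranin Scg3 by 5.25, the active zone protein Rimbp2 by 5.67, the synaptotagmin Syt7 by 2.74 and the calcium channel subunit Cacna1a by 2.77 on the log2 scale. Of the 30 genes of this list, 13 passed the filter and 9 of them rose (median log2 4.57), beside 0.432% of all genes tested. Of the 17 others, for which no share over all such genes was computed, 16 had a higher pooled CPM in members. They included the prohormone convertase Pcsk1 (6 UMIs against 12) and its inhibitor Pcsk1n (8 against 3), while the widely expressed Vamp2 differed by 0.28 and did not pass the test.

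Several genes outside these lists were among the 15 largest rises. Hmgn3, a nucleosome-binding protein, was at 171, 101, 42.8, 22.5 and 0 CPM in members (26 UMIs against 2, ratio 246 with a counting interval of 61.7 to 2142). Gfra3, a receptor subunit of the GDNF family, had 24 UMIs against 2 (ratio 228, interval 56.5 to 1986), and Map1b, a microtubule-associated protein of neurons, 16 against 2 (ratio 152, interval 35.6 to 1360). Cerkl (log2 6.05), Vwa5b2 (5.98) and the prion protein gene Prnp (5.08) completed the group.

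Of the other hormone-related lists, few genes could be tested. Among 3 testable genes for further secreted products, the retinol carrier Rbp4 rose (log2 3.84, adjusted p = 0.0078), and Reg4 had 71 UMIs in members and differed by 1.43 (adjusted p = 0.20, or 0.032 with the other scaling). Among 3 testable sensing receptors Gfra3 rose, while Ffar1 (14 UMIs against 4) was below the filter. None of the 7 testable genes of serotonin synthesis and transport passed the test (median log2 −0.04, or 0.09 with the other scaling, where Gch1, which makes a cofactor of Tph1, rose by 1.71). For Ddc, which makes serotonin from its precursor and is also expressed by enterocytes, the levels were 343, 101, 171, 96.4 and 0 CPM in members and 79.6, 104, 71.4, 47.6 and 55.5 in 0-UMI wells (log2 0.90, adjusted p = 0.60). The list of enteroendocrine markers that the study used had 18 of its 19 testable genes higher, beside 0.432% of all genes tested. The study, however, used this list to classify these same clumps. It was drawn from single-cell data published before. Without the filter on low counts, 14 of 21 endocrine factors, 18 of 30 granule genes and 36 of 44 of the study's markers were higher and none was lower, beside 1.42% of all 22259 genes in that fit (0.611% higher, 0.804% lower). The same fit had 15 of 15 Paneth genes lower, and 11 of 17 enterocyte genes other than Apoa1, Apoa4 and Apob.

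Members were also compared with 1 well of 0 UMIs per member, taken from the same plate at the nearest depth. These matched wells are part of the 0-UMI wells already described, so a low level of the named rises in them is no further check. None of 23 named rises passed the filter against the matched wells, and of the 893 genes that did, 0 rose and 0 fell (edgeR, adjusted p under 0.05), with 4 higher and 26 lower at an unadjusted p under 0.05. The number of genes called higher went from 42 to 4 without mouse 4, where 1 of 23 named rises passed the filter and it passed the test, and to 20 without mouse 3. With at least 2 wells per sum, 18 were called higher without mouse 4. Without plate 1 of the larger clumps of mouse 4, 37 genes rose, and of 23 named rises 18 could be tested and 15 passed.

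Genes of the Paneth, goblet and enterocyte lists were among the 125 genes (1.28% of those tested) that fell in members. Of 15 Paneth genes, 14 fell (median log2 −4.42). Their counting is uncertain, as the defensin genes are near-identical copies that share reads. Defa22 was at 206, 0, 64.2, 27.5 and 0 CPM in members and at 6222, 1.7, 5741, 445 and 37.0 CPM in the 0-UMI wells of mice 1 to 5 (log2 −5.39, SE 0.36, adjusted p = 8.5e-46). By the naming rule (20 CPM or more in 0-UMI wells), the 10 largest falls were the defensin-region genes Gm21002, AY761185, Defa-ps7 and Gm15293, the small proline-rich genes Sprr2b and Sprr2a3, the glucose transporter gene Slc2a2, Dnase1, Kcnc4 and Gm43291. For the goblet list, 6 of 14 tested genes fell, among them the lectin-like Zg16 (log2 −2.52), Clca1 (−2.49), Fcgbp (−2.13) and the trefoil factor Tff3 (−1.81). Without wells of other secretory markers, an alternative chosen after seeing the data, Tff3 turned to 0.48 (adjusted p = 0.77, edgeR). Of the enterocyte list, Apoa1, Apoa4 and Apob were left out here, as they were used to call wells crypt-like, and 11 of the other 17 genes fell, such as the disaccharidase Sis (−1.96) and the sodium-glucose transporter Slc5a1 (−1.92).

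Of the named genes, DESeq2 kept 7 of 21 falls and 19 of 23 rises. Of the 21 falls, 14 could be tested in the larger clumps alone and 7 of them lost the call. In wells thinned to 500 UMIs 11 of 15 testable falls lost it, and so did 5 of 5 against the matched wells.

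The summed Paneth list was lower against all 0-UMI wells but not, on average, against wells of matched depth. It was at 8841, 0, 557, 1599 and 0 CPM in members and at 61709, 170, 51138, 18651 and 2140 CPM in all 0-UMI wells, lower in members in 5 of 5 mice (mean difference −24562 CPM). In the matched wells it was at 1437, 94.9, 417, 1598 and 1960 CPM, and the members then averaged 1098 CPM more, higher in 3 of 5 mice (exact permutation p = 0.6875, two-sided), but the mean difference was −478 CPM without mouse 1. Paneth RNA also differed between the plates of mouse 4, from 2024 to 36944 CPM in the 0-UMI wells of its larger clumps, and was lower in members on each of 8 plates. In mouse 1, 78.7% of the Paneth UMIs of members came from 1 well. The part of depth and plate in this difference was not tested.

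Goblet RNA was lower in members with either comparison group, though not in every mouse. The goblet list was at 3667, 304, 557, 2191 and 1985 CPM in members and at 3769, 4696, 5619, 3617 and 3765 CPM in 0-UMI wells, with a mean of 1741 ± 1364 against 4293 ± 856 CPM (SD, n = 5 mice). It was lower in 5 of 5 mice (exact permutation p = 0.062, two-sided, the smallest that 5 mice allow, adjusted p = 0.0893 over 10 lists), but mouse 1 differed by little. Against matched wells it was lower in 4 of 5 mice (p = 0.125, exact). Against all 0-UMI wells of the plate, members of mouse 4 were lower on 8 of 8 plates, 2 of which held 1 shallow member with no goblet UMI. The villus-like members, taken separately, were also low, with 524, 1149 and 690 CPM in mice 1, 3 and 5 against 7112, 12966 and 6995 CPM in villus-like 0-UMI wells. Those values rest on 5, 2 and 2 wells and were not tested.

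The enterocyte list without Apoa1, Apoa4 and Apob, an alternative chosen after seeing the data, was at 1336, 1623, 4088, 2077 and 662 CPM in members and at 8900, 9953, 9703, 2857 and 4953 CPM in 0-UMI wells, lower in 5 of 5 mice (exact permutation p = 0.062, two-sided). Against the matched wells, which had 5303, 10911, 5940, 2238 and 653 CPM, it was lower in 4 of 5 (exact permutation p = 0.125). In mouse 5 both values rest on 1 UMI.

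The summed stem list was higher in members of every mouse. This list (Lgr5, Ascl2, Olfm4, Slc12a2, Axin2, Smoc2, Rgmb, Gkn3, Cdk6 and Prom1) was at 857, 507, 771, 617 and 662 CPM in members of mice 1 to 5 and at 186, 182, 267, 412 and 194 CPM in 0-UMI wells. The means were 683 ± 136 and 248 ± 97.9 CPM (SD, n = 5 mice, exact permutation p = 0.062, two-sided, adjusted p = 0.0893 over the 10 lists). In mice 1, 2, 3 and 5 the member levels rest on 25, 5, 36 and 1 UMIs, and 83.3% of those of mouse 3 came from 1 well. The matched wells had 103, 380, 271, 528 and 0 CPM, again lower in 5 of 5 mice. Against all 0-UMI wells of the plate, members of mouse 4 were higher on 6 of 8 plates. None of the 10 stem genes passed the test across genes, with 9 of 10 positive and a median log2 of 0.72, where all genes had −0.15. Ascl2 differed by 1.24 (adjusted p = 0.26), Olfm4 by 1.21, Axin2 by 0.98 and Slc12a2 by 0.95, whereas Lgr5 differed by −0.11, or 0.01 with the other scaling (15 UMIs in members).

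The summed list of dividing genes was higher in members of every mouse as well. It was at 2330, 1522, 1862, 3054 and 3971 CPM in members and at 993, 1156, 1110, 2271 and 857 CPM in 0-UMI wells (means 2548 ± 981 and 1278 ± 567, 5 of 5 mice higher, exact p = 0.062), and it was above the matched wells (mean 1415 CPM) in 5 of 5 mice. In mouse 2 the matched value was nearly equal (1522 against 1518 CPM). Against all 0-UMI wells of the plate, members of mouse 4 were higher on 5 of 8 plates. In mice 1, 2, 3 and 5 the member levels rest on 68, 15, 87 and 6 UMIs, and 80.5% of those of mouse 3 and all of those of mouse 5 came from 1 well. None of the 18 genes passed the test (median log2 0.18), with Tubb5 at 0.84 and Mki67 at −0.04, or 0.28 with the other scaling.

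**Figure D4:**
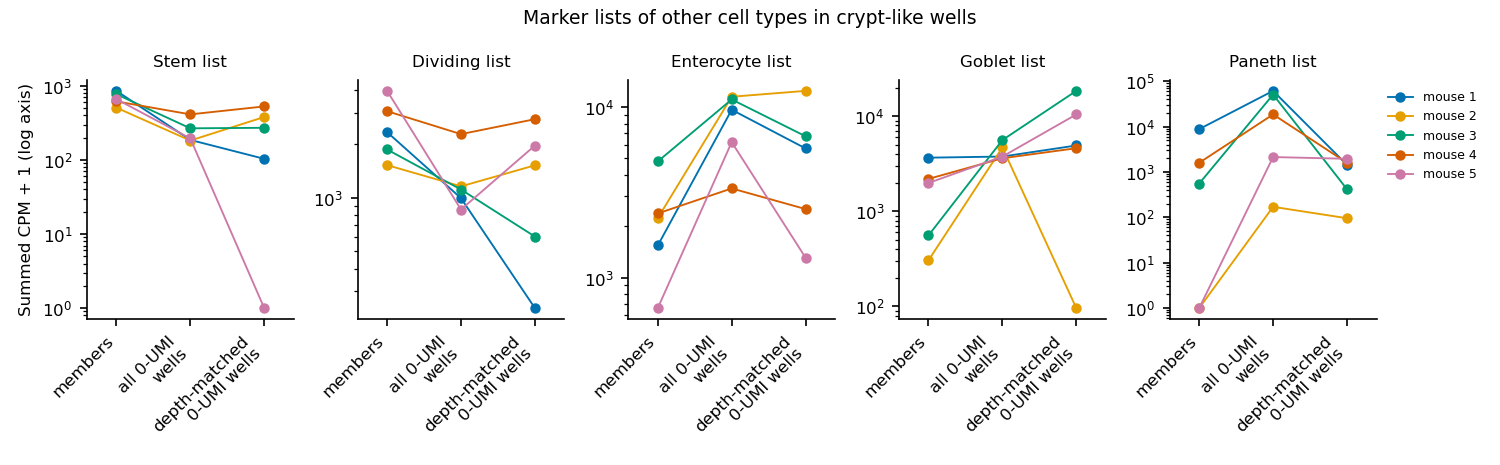
Summed CPM + 1 (log axes, which differ between panels) of the stem, dividing, enterocyte, goblet and Paneth lists in crypt-like members, in all 0-UMI wells and in the depth-matched 0-UMI wells, with 1 line per mouse (the enterocyte panel includes Apoa1, Apoa4 and Apob). Stem values of members lie above both comparison groups in 5 of 5 mice, and Paneth values of the matched wells lie between 94.9 and 1960 CPM, above those of members in mice 2 and 5 and below them in mice 1, 3 and 4.

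Tuft and lymphocyte genes gave few or no UMIs in members. The tuft list summed to 5 UMIs in mouse 4 and 0 in the other mice (0-UMI wells at 8.5 CPM or more in every mouse), and the lymphocyte list to 0 in the members of all mice (0-UMI wells 3.08 to 349 CPM). Against the matched wells the tuft difference turned (1.25 against 0.557 CPM, exact p = 1.0), and the lymphocyte list was also at 0 in the matched wells of mice 1, 3 and 5. None of 21 testable genes of protein folding and export in the endoplasmic reticulum passed the test (median log2 −0.40), nor did 10 immediate early and heat shock genes (−0.19) or 5 genes of the secretory progenitor and Notch list (0.54), among which Sox9 differed by 0.86.

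The depth of members is given as a description, since the rule itself (5 or more UMIs against 0) places deep wells more often among members and shallow wells more often at 0. The median depth of crypt-like members was 4314, 4256, 4673, 12973 and 765 UMIs in mice 1 to 5 and that of 0-UMI wells 2834, 1972, 3380, 5198 and 1212 UMIs, higher in 4 of 5 mice. Depth and cell content cannot be told apart here. The mitochondrial share was lower in members in 4 of 5 mice (exact p = 0.25).

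The share of wells that were members was compared between sort gates and zones. In mice 1, 4 and 5, members made up 1.78%, 2.55% and 1.23% of larger clumps and 0.21%, 0.478% and 0% of pairs, the last being 0 of 52 wells, which allows up to 5.77% by a limit of 3 counts and 6.85% by the exact binomial interval. The share was higher in larger clumps in 3 of 3 mice (mean difference 1.63 percentage points, exact permutation p = 0.25, two-sided, the smallest that 3 mice allow). With each well thinned to 500 UMIs and 1 UMI required, the difference was 1.66 points, again in 3 of 3 mice. The mean shares were then 4.43% and 2.77%, against 1.86% and 0.229% by the rule. The thinned wells are thus another and larger set (93 wells in mouse 4 against 50 members). Gate and number of cells per well cannot be told apart, and no share per cell was computed.

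By zone, members made up 1.03%, 1.33%, 1.15%, 2.47% and 1.18% of crypt-like wells in mice 1 to 5 and 1.01%, 0%, 0.201%, 0% and 0.971% of villus-like wells. The mean difference of 0.996 ± 0.981 percentage points (SD, n = 5 mice) was positive in 5 of 5 mice (exact permutation p = 0.062, two-sided, the smallest possible), but in mice 1 and 5 the values were nearly equal, and without mouse 4 the difference was 0.629 points. In thinned wells it was positive in 4 of 5 (p = 0.375), and at a threshold of 10 UMIs likewise (p = 0.1875). These shares pool the gates in mice 1, 4 and 5, and zone was not tested within a gate. In mouse 1 the order reversed within each gate. Its villus-like wells held 4 members beside 143 0-UMI wells in larger clumps and 1 beside 277 in pairs. Its crypt-like wells held 5 beside 270 and 0 beside 140. The order held in larger clumps of mice 4 (48 beside 1247, against 0 beside 135) and 5 (2 beside 139, against 2 beside 166). The 5 of 5 count rests on the mix of gates in mouse 1.

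**Figure D5:**
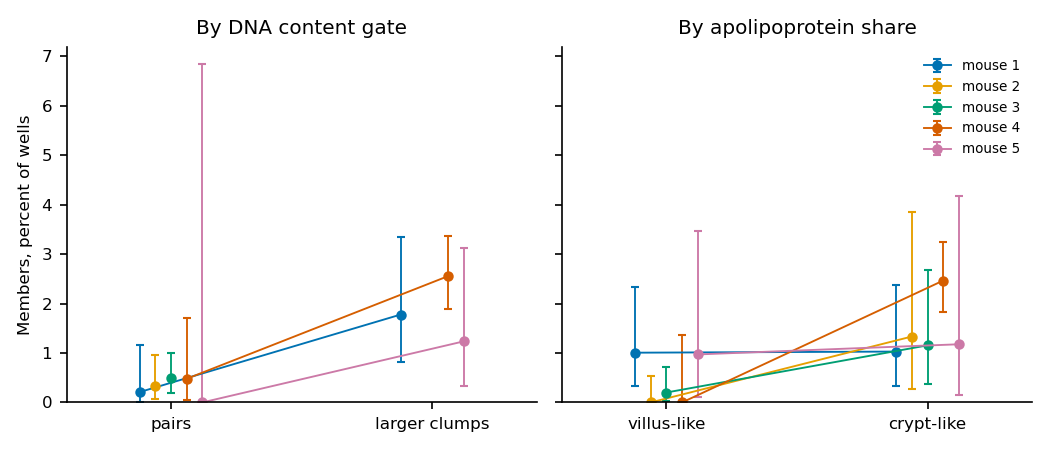
Members as percent of kept wells, by DNA content gate (left) and by zone (right), with 1 point per mouse and 95% exact binomial intervals that cover counting error only. Larger clumps lie above pairs in mice 1, 4 and 5, and crypt-like wells above villus-like wells mainly in mice 2, 3 and 4.

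The 9 villus-like members came from mice 1 (5 wells), 3 (2) and 5 (2). Sct gave 194 of their UMIs of the 12 genes (35.8%) and was found in 8 of 9 wells, and it led 5 of them. Pyy (137 UMIs, 25.3%) and Gip (96) followed, and Cck had 46 and Nts 26. Ghrl, Sst and Tac1 were not seen. Of all 307 Sct UMIs in members, most thus came from these 9 wells, but 91 of them lay in 1 pair of mouse 1. As only mouse 1 had 5 villus-like members, zones within members could not be tested at 5 wells per sum, and no test with fewer wells was run.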

How the data were processed

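Sorted jejunal clumps were profiled by MARS-seq. The deposited tables hold whole UMI counts per gene and well, which the authors made with bcl2fastq (2.15.0.4 per the labels), STAR and zUMIs on GRCm38. The authors' background subtraction was not applied in these tables, and it was not applied here, since the empty wells are not named. The clump table holds 27538 genes and 17162 wells of 45 plates, and wells were assigned to mice by the plate title in their names.

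Wells were kept with over 500 UMIs, 200 or more genes, and mitochondrial genes at 30% or less. The 12 rule genes were left out of the counts and library sizes of every test. Wells with 1 to 4 rule UMIs entered neither class. UMIs were summed per mouse and class (at least 5 wells) and tested with edgeR 4.0.16 in R 4.3.3 (quasi-likelihood, TMM, filterByExpr) with the mouse as block and Benjamini-Hochberg adjustment at 0.05. Both sums of a mouse come from the same animal, and their deviations correlated at 0.126, 0.124 and 0.279 in mice 1, 3 and 4. List levels, shares and depth were tested over mice by two-sided exact sign-change permutation (Python 3.11.15). CPM leave out the rule genes.

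Named genes were the 12 rule genes, the 15 largest rises and 10 largest falls among called genes that moved the same way in every mouse of the fit and reached 20 CPM in the higher class, called genes of the endocrine lists, and up to 4 genes of each other list. Other genes given with values were chosen after their values were seen. The members and gene lists were chosen with earlier results of these data known. On simulated data 33 of 33 genes raised 8-fold were recovered, 20 of 34 raised 4-fold and 1 of 34 raised 2-fold, with 2 false calls among 9423 genes. The changed genes were drawn only from genes with many UMIs, and the simulated spread was fixed. These rates therefore do not cover genes of few UMIs held by few wells, as many named rises are. Some genes that the rule names are not reported here. Single cells were not tested, since the same test recovered 1 of 32 genes raised 8-fold there. Doublets were not called, as every well holds a clump.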

Additional observations from a re-analysis of the deposited data

Results flagged for a closer look

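Of 19 values checked for a mouse that stands apart from the other 4, 5 did, and chance gives about 1 in 20. The dividing list was highest in the 0-UMI wells of mouse 4 (2271 CPM). The Paneth list was highest in the members of mouse 1 (8841 CPM), where 78.7% of its UMIs came from 1 well. The share of crypt-like wells that were members was highest in mouse 4 (2.47%). The median mitochondrial share was highest in mouse 5, in members (16.4%) as well as in 0-UMI wells (21.1%).

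Mouse 6, whose clumps were sorted above 2n and entered no comparison, had 278 kept wells. Of these, 4 wells (1.44%, 95% exact binomial interval 0.393 to 3.64%) held at least 5 UMIs of the 12 genes. The well with the most held 598, and Cck (242 UMIs) and Gcg (236) were the most abundant of the 12 genes.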

How the results depend on the processing

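Against 42 genes higher and 125 lower, DESeq2 gave 37 and 40, larger clumps alone 20 and 40, and no filter on low counts 136 and 179 (22259 tested). Wells thinned to 500 UMIs gave 0 higher and 27 lower of 1767 tested (9 and 132 at an unadjusted p under 0.05), and nearest-depth wells 0 and 0 of 893 (4 and 26). Leaving out 1 mouse gave 4 to 31 genes higher and 46 to 109 lower, with 4 higher without mouse 4 and 20 higher and 46 lower without mouse 3. Without the mouse as block, 20 were higher and 49 lower.

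Chosen after seeing the data, leaving out plate 1 of the larger clumps of mouse 4 gave 37 higher and 203 lower. With at least 2 wells per sum, which brought in all 5 mice, 48 were higher and 117 lower. Under that limit, 5 were higher without the block, leaving out 1 mouse gave 18 to 51 higher and 51 to 151 lower (18 higher without mouse 4, 63 lower without mouse 1 and 51 lower without mouse 3), nearest-depth wells gave 1 and 0, and wells without other secretory markers 7 and 7. In the last, Tff3 turned from −1.81 to 0.48 (adjusted p = 0.77, edgeR). With nearest-depth wells the Paneth difference turned to 1098 CPM (−478 CPM without mouse 1) and that of the tuft list to 0.695 CPM, and lists that passed no test turned too, from 178 to −455 CPM for protein folding and export and from 25.4 to −28.8 CPM for the secretory progenitor and Notch list. The causes were not tested, apart from fewer genes or wells tested.

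Over the 44 called named genes and 25 alternatives, 801 of 1100 cases were tested, of which 701 kept direction and call, 99 lost the call and 1 turned. Pairs alone, villus-like wells, and stricter rules at 5 wells per sum could not be fitted, as too few mice had enough wells. Mice 2 and 5 were not in the fit. Single-cell alternatives were not run. The low depth of mice 1 and 3 limits genes of few UMIs.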

Other observations

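Single cells labelled mice 1 to 4 were measured in other libraries, and their values are given side by side and without a test. Whether these are the same animals as clump mice 1 to 4 is not known from the labels. With at least 10 UMIs of the 12 genes, 265 of 5199 kept cells qualified, 13, 234, 10 and 8 per mouse, so mouse 2 contributed most. The plates labelled mouse 2 carry 2 ages, 3 months and, on 3 plates, 4 months, and 5 of them are labelled CD24, so they may not be 1 animal or 1 sort. Gip gave 43.6% of the 12 genes' UMIs in these cells and 17.5% in the clump members, and Sst 18.6% and 1.55%. Cck and Gcg gave 4.23% and 1.29% in the cells and 18.4% and 17.6% in the clump members.

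Of 20381 genes seen, 4.04% were higher in such cells than in cells with 0 UMIs in 4 of 4 mice. Of the 15 largest rises in clumps, 12 were. Fev was at 177, 137, 116 and 188 CPM in the cells of mice 1 to 4 and at 0, 2.26, 0 and 0 CPM in the cells with 0 UMIs. Of the endocrine factors, 8 of 21 were higher in 4 of 4 mice, of the granule genes 17 of 30, of the genes of protein folding and export 9 of 22 and of the stress genes 4 of 12. None of 10 stem genes and none of 18 dividing genes was, though at a share of 4.04% over all genes such short lists can hold none. The cells were also not limited to crypt-like ones, unlike the clump wells. These counts therefore cannot be set against the stem and dividing levels of the clumps.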
